A study of Mus musculus with 6 samples.

Results

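The comparison set 2 libraries labelled shCSB/shNDN against 2 libraries labelled shControl and covered 15559 of 54429 genes of the deposited table (28.6%). A gene was included when its FPKM (fragments per kilobase of transcript scaled to library size) was at least 0.5 in 2 or more of the 4 libraries, and 13120 of the included genes were protein coding. Per the labels, every library came from the primary visual cortex (V1) of a female C57BL mouse aged 9 weeks whose V1 had been injected with an adeno-associated virus (AAV), a vector that delivers genes to brain cells. The AAV carried a control hairpin in shControl, and hairpins against CSB and necdin in shCSB/shNDN. According to the series text, each genotype was represented by 2 female mice. A group with the CSB hairpin alone makes up the rest of the 6 libraries. Both groups compared thus received virus and a hairpin. The serotype, the promoter of the hairpins, their sequences, the cells they reached and the time from injection to sampling are not given in the sources used here, and the tissue was sequenced in bulk, so cells that took up no virus were included.

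A short hairpin RNA is processed into a small RNA that guides the breakdown of a matching messenger. CSB, the product of Ercc6, recruits repair factors to RNA polymerase II stalled at DNA damage, and its loss causes Cockayne syndrome, a disorder with neurodegeneration and reactive glia. Necdin, the product of the imprinted gene Ndn, is a MAGE family protein of postmitotic neurons that restrains cell cycle and p53 activity. Microglia, the resident macrophages of the brain, take on a state with high lysosomal, lipid-handling, complement and antigen presentation genes around damaged or dying cells, and astrocytes then raise intermediate filament genes such as Gfap and Vim.

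The FPKM values corresponded to 16781184 and 15731788 reads in shControl replicates 1 and 2, and to 16545933 and 16384738 in shCSB/shNDN replicates 1 and 2. Since a count of 0 is compatible with up to 3 reads, levels under an FPKM of 0.175 to 0.201 were not detectable for a transcript of 1 kilobase, a limit for counting error only. The shCSB/shNDN libraries differed from each other more than the controls did. Across the included genes, which are not independent replicates, Pearson's r of log2(FPKM + 1) was 0.986 between the control libraries, 0.938 between the shCSB/shNDN libraries, and 0.942 to 0.948 between a shCSB/shNDN library and a control. Replicate 2 of shCSB/shNDN stood apart: the share of reads from mitochondrially encoded genes was 1.41% there, against 5.27% in replicate 1 and 7.06% and 6.61% in the controls. In that library 434 table entries had exactly 1 read, against 1595 to 1837 in the other 3, and 19290 entries were above 0, against 21820 to 23271. Values are therefore given for each library, replicate 1 before replicate 2 and shControl before shCSB/shNDN. Each log2 change is that of log2(FPKM + 1) from a limma fit to the 4 libraries, with its standard error (SE, n = 2 against 2), and it understates the change of genes with low FPKM.

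The hairpin targets gave unequal pictures. Ercc6 (ENSMUSG00000054051, GRCm38 chr14:32513521-32580990), the CSB gene, stood at an FPKM of 1.46 and 1.22 in the controls and of 1.61 and 1.81 in shCSB/shNDN, from 305, 235, 352 and 399 reads. Both libraries labelled shCSB/shNDN thus lay above both controls for the gene that the CSB hairpin is aimed at. The libraries labelled shCSB had 1.29 and 1.61, so neither of them lay below both controls. The log2 change was 0.21 ± 0.19, with a 95% interval from -0.27 to 0.69 (limma adjusted p = 0.713). Because Ercc6 goes against the label, the libraries are called those labelled shCSB/shNDN or shCSB, and the labels behind every direction below have this gene against them. Ndn (ENSMUSG00000033585, chr7:62346569-62350262) stood at 56.1 and 49.8 in the controls and 16.8 and 41.0 in the libraries labelled shCSB/shNDN. Both lay below both controls, at 31.8% of the control mean in replicate 1 and 77.4% in replicate 2. The log2 change was -0.98 ± 0.43, with an interval from -2.08 to 0.13 (limma adjusted p = 0.494). Without replicate 2 it was -1.60 and passed the threshold (limma adjusted p = 0.0191), in a fit that assumes that the lone library varies like the controls. Ndn was 47.9 and 38.1 in the libraries labelled shCSB, which hold the value of shCSB/shNDN replicate 2 between them.

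Across all 15559 genes, limma called 0 at an adjusted p under 0.05 (0.0%), the smallest adjusted p was 0.245, and limma-voom on the recovered reads also called 0. Left with replicate 1 or replicate 2 of shCSB/shNDN as the lone library of its group, taken to vary like the controls, the fit called 507 or 1732 genes. At an unadjusted p under 0.05, 844 genes were higher (5.42%) and 828 lower (5.32%) in the libraries labelled shCSB/shNDN, and limma-voom gave 1601 such genes in all. With the FPKM rescaled to the total without mitochondrially encoded genes this split was 976 higher and 598 lower. For 3261 genes (21.0%) both of these libraries lay above both controls, and for 3763 (24.2%) both lay below. A stricter description asked for both libraries at least 2-fold past both controls on FPKM + 1: 153 genes lay above by this rule (0.983%) and 35 below (0.225%). No gene below can therefore be called changed. What follows gives levels, the separation of the groups, and the counts of gene lists against these shares. The median log2 change of all included genes was -0.009. The filter itself fixed the place of some genes: 348 were included through the libraries labelled shCSB/shNDN alone, with both controls under 0.5, and had to lie above both controls. Of the other 15211, 2913 did (19.2%), and 103 were at least 2-fold above. List counts are therefore also given without such members, and every gene named below with both controls under 0.5 was fixed in this way. On the lower side 163 genes were included through the controls alone, and none was in a list. A list median in 1 library alone is also the list's value when the other library is left out.

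**Figure D1:**
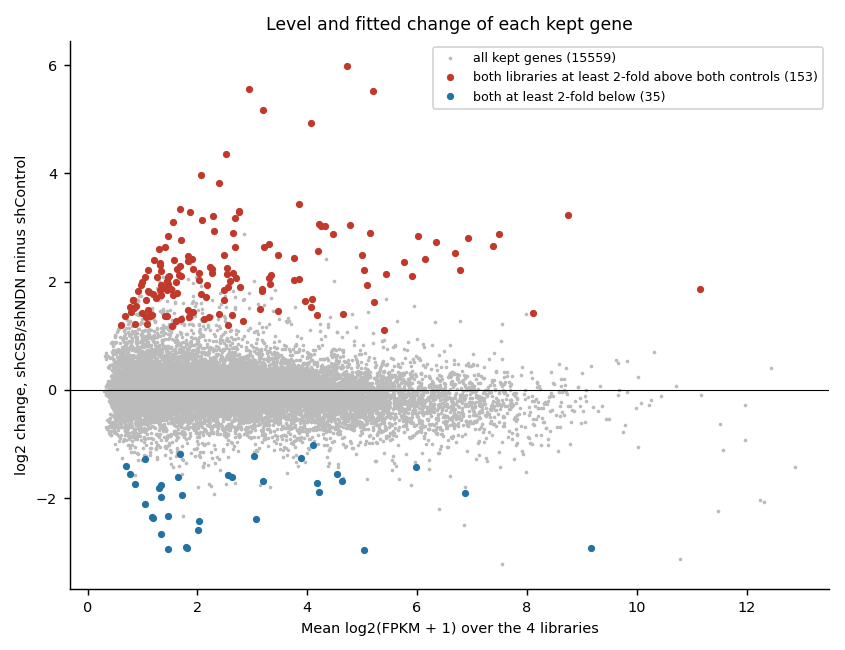
Fitted log2 change (vertical axis, shCSB/shNDN minus shControl) against the mean log2(FPKM + 1) over the 4 libraries (horizontal axis), 1 point per included gene. The 153 genes with both libraries at least 2-fold above both controls are in red and reach 5.99, while the 35 with both at least 2-fold below are in blue.

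Of the 153 higher genes, 127 were protein coding, a share near that of all included genes (13120 of 15559). A gene list among the 50 used here held 70 of the 153, against 821 of the 15559 included genes. The lists were chosen with earlier results of these data known, so this count is a description only. The 70 also include members whose place the filter fixed. The place of 103 of the 153 was not fixed by the filter. Microglial, lysosomal and antigen presentation genes headed the 153. Spp1, which encodes the secreted glycoprotein osteopontin, stood at an FPKM of 2.79 and 1.87 in the controls and 451 and 96.5 in the libraries labelled shCSB/shNDN, a 117-fold difference of the means. Lyz2, the lysozyme of macrophages and monocytes, stood at 4.57 and 4.22 against 477 and 129. Both genes lay far above the controls in both libraries and were higher in replicate 1 than in replicate 2. Gpnmb, a lysosomal membrane glycoprotein of lipid-laden phagocytes, had 0.490 and 0.555 against 144 and 19.6. Lgals3, the carbohydrate-binding protein galectin-3, had 0.231 and 0.288 against 50.7 and 12, its place above the controls fixed by the filter. Their log2 changes were 5.99 ± 0.73, 5.53 ± 0.62, 5.17 ± 0.90 and 4.36 ± 0.65 in that order (limma adjusted p = 0.316, 0.316, 0.341 and 0.333).

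Cyba and Hcls1 were among the genes with the smallest p. Cyba, a membrane subunit of the phagocyte NADPH oxidase, had FPKM values of 10.3 and 7.16 against 103 and 59.0, and a log2 change of 3.04 ± 0.34. Hcls1, an actin regulator of blood-lineage cells, had 1.68 and 1.64 against 14.6 and 9.30 (2.25 ± 0.25). In both of these the lower shCSB/shNDN library was still more than 2-fold above the higher control. Gpsm3, a regulator of G protein signalling in leukocytes, had 2.29 and 1.80 against 12.4 and 8.53. Ube2l6, the conjugating enzyme for the ubiquitin-like protein ISG15, had 3.72 and 4.90 against 14.2 and 13.6, the most even pair of shCSB/shNDN values among the 12 higher genes with the smallest p. Cdkn2a, whose transcripts encode the cell cycle inhibitors p16INK4a and p19ARF, had 0.210 and 0.114 against 3.40 and 2.74. Its control values rest on 4 and 2 reads, near the limit of the depth, and the others on 68 and 55. With both controls under an FPKM of 0.5, the filter fixed its place above them.

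**Figure D2:**
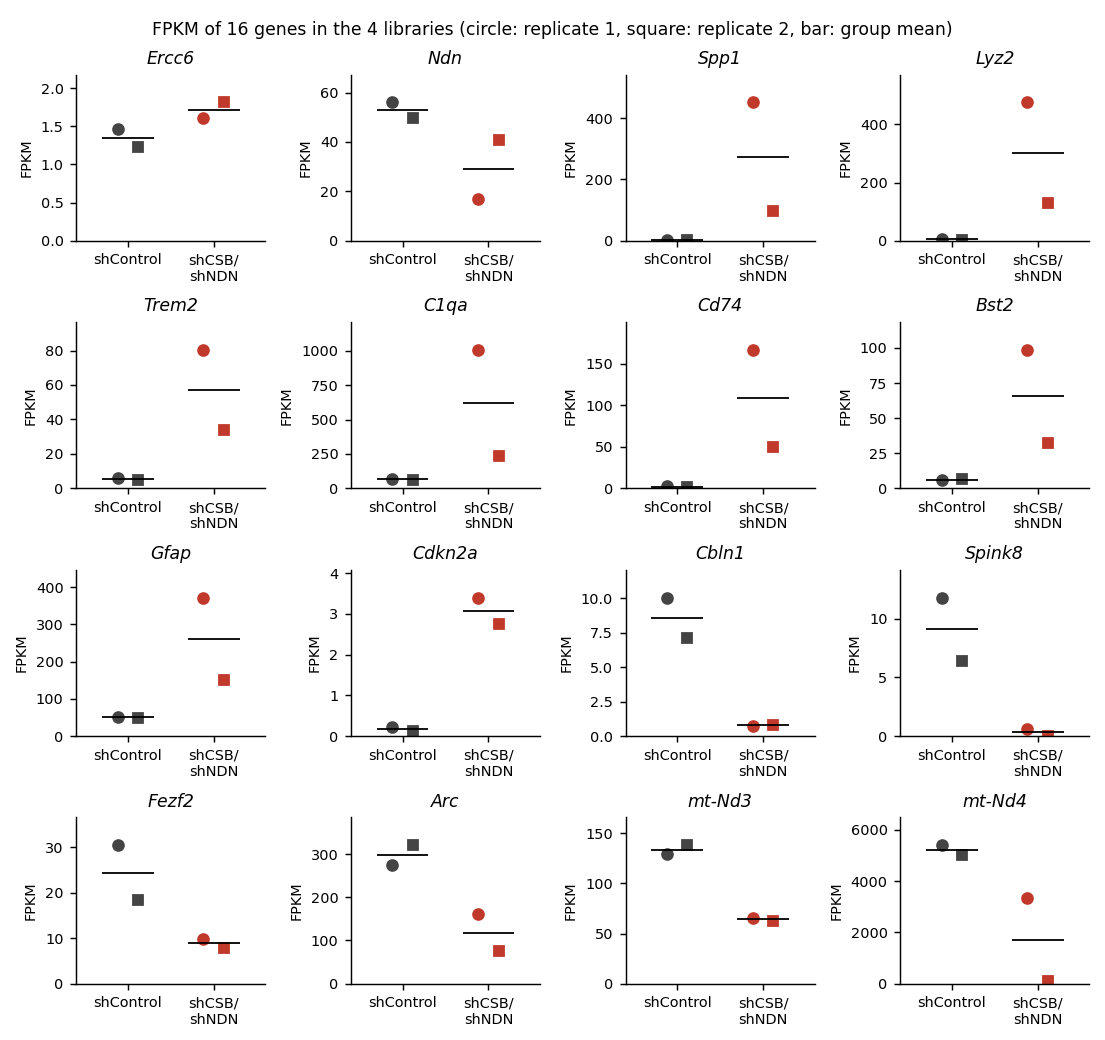
FPKM (vertical axis, linear, from 0) of 16 genes in the 4 libraries, with replicate 1 as a circle, replicate 2 as a square and a bar at the group mean. The microglial, astrocytic and interferon genes are higher in both shCSB/shNDN libraries and highest in replicate 1, while Cbln1, Spink8 and mt-Nd3 are low in both and mt-Nd4 is low mainly in replicate 2.

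Genes of activated microglia lay above the controls as a block. All 22 members of this list were included, both libraries lay above both controls for 21 of them, and 13 were at least 2-fold above, against 21.0% and 0.983% of all genes. The median log2 change was 2.69, with 3.80 in replicate 1 and 1.57 in replicate 2. Without the 5 members whose place the filter fixed, 16 of 17 lay above, 9 at least 2-fold, with a median of 2.00 (3.41 and 1.24). In bulk tissue, more cells of a type and more RNA per cell cannot be told apart. Trem2, the lipid receptor that drives this state, had FPKM values of 5.79 and 5.04 against 80.4 and 34.1, a log2 change of 3.06 ± 0.42. Ctsd, the lysosomal protease cathepsin D, had 134 and 145 against 2161 and 808. Cst7, an inhibitor of lysosomal cathepsins, was almost silent in the controls at 0.249 and 0, from 4 and 0 reads, and stood at 204 and 12.7. Itgax, the integrin CD11c, had 0 and 0.0279 against 18.0 and 4.57. The member that did not separate the groups was Cd68, a lysosomal membrane protein of macrophages, with 10.4 and 9.96 against 210 and 8.55. Its replicate 2 lay below both controls while the other list members in that library lay above them. Apoe, the lipoprotein of brain lipid transport, which astrocytes also make in quantity, had 1265 and 1126 against 5680 and 3333. Apoe was picked out after its values were seen.

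Genes of homeostatic microglia had a smaller median. Of 20 included members, 14 had both libraries above both controls, 0 had both below, and 4 were at least 2-fold above. The median log2 change was 1.08, with 1.79 in replicate 1 and 0.48 in replicate 2, and the filter fixed none of them. Fcrls, an Fc receptor-like protein that marks resident microglia in mice, had FPKM values of 11 and 12.8 against 156 and 58.2. Aif1, the actin-binding protein Iba1, had 3.73 and 3.93 against 28 and 13. Olfml3, a secreted protein of microglia, had 3.47 and 4.02 against 27.1 and 9.65, and Ltc4s, which makes leukotriene C4, had 2.54 and 1.98 against 10.1 and 5.70. The classic identity genes were chosen after their values were seen. Tmem119, a membrane protein of resident microglia, had 14.2 and 16 against 47.9 and 22.4. Cx3cr1, the fractalkine receptor, had 5.93 and 8.06 against 34.4 and 10.2. P2ry12, the purinergic receptor of microglial processes, did not separate the groups, with 7.94 and 8.47 against 15.8 and 3.51.

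Complement genes followed the same order of libraries. Of 14 included members, 11 had both libraries above both controls and 6 were at least 2-fold above, with a median log2 change of 1.26 (2.11 in replicate 1 and 0.59 in replicate 2). The filter fixed 1 member, and 10 of the other 13 lay above. The chains of C1q, which starts the classical pathway and tags synapses for removal, were high. C1qa had FPKM values of 69.4 and 61.5 against 1006 and 236, C1qb had 68.7 and 62.2 against 790 and 221, and C1qc had 33.0 and 27.9 against 414 and 103. All 3 chains were highest in replicate 1 and lay above both controls in replicate 2. C4b, the next component of that pathway, had 3.89 and 2.09 against 36.1 and 16.1, a log2 change of 2.70 ± 0.44.

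Genes of the phagocyte oxidase, Fc receptors and myeloid signalling had 17 of 20 included members with both libraries above both controls, 6 of them at least 2-fold above, and a median log2 change of 1.68 (2.66 in replicate 1 and 0.77 in replicate 2). Apart from 4 members fixed by the filter, 13 of 16 lay above. Cd14, a co-receptor for bacterial lipopolysaccharide, had FPKM values of 1.91 and 2.13 against 13.7 and 9.00. Laptm5, a lysosomal protein of blood-lineage cells, had 15.5 and 13.1 against 127 and 38.1, and Plek, a substrate of protein kinase C in such cells, had 1.77 and 1.79 against 20.3 and 6.12. Of 12 included inflammasome and NF-kB genes, 9 lay above the controls and 1 below, or 6 of 9 above without those fixed by the filter. Tlr2, a receptor for bacterial lipoproteins, had 0.387 and 0.200 against 11 and 2.91. Gsdmd, the pore-forming gasdermin D, had 1.09 and 1.16 against 6.90 and 3.29. Relb, an NF-kB subunit, had 2.04 and 1.76 against 4.12 and 5.01, one of the immune genes with the higher value in replicate 2.

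Among 13 included chemokine genes, 10 had both libraries above both controls and 2 had both below. The filter fixed 6 of the 10, which leaves 4 of 7. Cxcl10, an interferon-induced attractant of T cells, had FPKM values of 0.0273 and 0.0297 against 10.9 and 3.58, with 1 read in each control. Ccl4, made by activated microglia, had 0.0930 and 0.406 against 13.1 and 4.07. Cxcl16, a transmembrane chemokine, had 0.264 and 0.488 against 7.55 and 2.09. Ccl8 was 0 in each control, and 1.61 and 1.03 in the other libraries, from 14 and 9 reads. The 2 members below the controls, named after their values were seen, were the neuronal chemokine Cx3cl1 with 256 and 285 against 206 and 158, and Cxcl14 with 103 and 112 against 82.9 and 97.1.

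Most markers of T cells, monocytes and neutrophils did not reach the level for inclusion. Of 21 genes of T and cytotoxic lymphocytes 4 were included, 2 of them above the controls in both libraries and 1 of these by the filter, and of 17 genes of monocytes and neutrophils 2. The summed FPKM of the latter list was 2.73 and 4.30 in shControl and 24.7 and 4.06 in the libraries labelled shCSB/shNDN, with Csf3r, a gene named after its values were seen, at 20.3 of the 24.7. Retnlg of neutrophils, Ifng of T cells and Ighg1 of plasma cells were listed at 0 in all 4 libraries. Nkg7, a granule protein of cytotoxic lymphocytes, was 0 in each control, and 0.833 and 0.831 in the others, from 13 reads each. Of 16 B and plasma cell genes 9 were included, with 4 above the controls in both libraries. Of these 4, the filter fixed 3, which leaves 1 of 6. Igkc, the immunoglobulin kappa constant region, had 1.5 and 0.881 against 79.3 and 3.84, and it was 168 and 36.9 in the libraries labelled shCSB, so high values were not limited to one group. Igha, the constant region of immunoglobulin A, had 0.138 and 0 against 10.1 and 3.0. Trbc2, a constant region of the T cell receptor, lay lower, with 33.6 and 33.3 against 17.3 and 26.3. Reads of immunoglobulin and T cell receptor segments can be shared between near-identical genes. Erythroid markers were present at like levels in both groups: 5 of 6 genes were included, 1 above the controls and 0 below, and their summed FPKM was 183 and 282 in shControl and 186 and 272 in the others. Beyond these values, the part of blood cells in the immune lists above was not tested.

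Interferon-induced genes lay mainly above the controls. Of 30 members 26 were included, 24 had both libraries above both controls, 9 were at least 2-fold above and 0 had both below. The median log2 change was 1.17, with 1.99 in replicate 1 and 0.72 in replicate 2. Without 6 members fixed by the filter, 18 of 20 lay above, 7 at least 2-fold, and the median was 1.34 (2.19 and 0.72). Ifi27, an interferon-induced mitochondrial protein, had FPKM values of 27.0 and 28.5 against 63.7 and 58.8, a log2 change of 1.11 ± 0.18. Bst2, the tetherin that holds virus particles to the cell surface, had 5.64 and 6.45 against 98.6 and 32.2. Oas1a, which senses double-stranded RNA, had 0.619 and 0.640 against 12 and 4.80, and Trim30a, a ubiquitin ligase, had 0.269 and 0.212 against 5.07 and 1.99. Ifi27 was nearly equal in the libraries labelled shCSB/shNDN, while the other genes were more than 2-fold higher in replicate 1. Both groups had received AAV, and the part of the virus in these values was not tested.

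The promoters of these genes are shown because their members lay high together. Interferon acts through transcription factors that bind the interferon-stimulated response element, whose core is GAAA, any 2 bases, GAAA. In RefSeq windows (build GRCm38.p6) from 250 bases before to 50 bases after each start, searched on both strands with overlapping matches allowed, 12 of the 20 list members with a window held this core (60.0%), against 3.99% of all genes and 3.51% of included genes with a window. The 250 bases before the start are printed for the 4 members with the core and the smallest p, Oas1a (chr5:120907526-120907775, minus strand), Bst2 (chr8:71537473-71537722, minus), Trim30a (chr7:104465194-104465443, minus) and Ifit1 (chr19:34640639-34640888, plus), in the direction of transcription with the core or its reverse complement in capitals.
Oas1a: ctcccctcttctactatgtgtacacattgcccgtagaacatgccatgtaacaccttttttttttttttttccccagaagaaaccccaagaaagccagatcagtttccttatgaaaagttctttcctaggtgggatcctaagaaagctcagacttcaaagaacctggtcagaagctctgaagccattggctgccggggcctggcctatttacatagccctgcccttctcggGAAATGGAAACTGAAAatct
Bst2: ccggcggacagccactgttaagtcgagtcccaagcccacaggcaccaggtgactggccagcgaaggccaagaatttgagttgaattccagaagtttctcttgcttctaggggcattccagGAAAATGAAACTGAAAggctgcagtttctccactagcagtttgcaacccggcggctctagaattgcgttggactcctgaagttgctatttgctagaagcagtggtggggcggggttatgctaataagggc
Trim30a: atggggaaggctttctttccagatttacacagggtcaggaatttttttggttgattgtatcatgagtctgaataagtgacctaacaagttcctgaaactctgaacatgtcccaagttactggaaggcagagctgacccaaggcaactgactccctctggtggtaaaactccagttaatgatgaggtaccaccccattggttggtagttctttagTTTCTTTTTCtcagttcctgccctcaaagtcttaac
Ifit1: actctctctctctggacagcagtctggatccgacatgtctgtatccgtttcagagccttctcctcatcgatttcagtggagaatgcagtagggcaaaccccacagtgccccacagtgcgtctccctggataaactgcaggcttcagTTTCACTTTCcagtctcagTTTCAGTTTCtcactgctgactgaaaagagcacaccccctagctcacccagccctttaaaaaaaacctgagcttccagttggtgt
The first core base lay 20 bases before the start in Oas1a, 130 in Bst2, 36 in Trim30a and 104 in Ifit1. Ifit1, which binds foreign capped RNA and was named for its sequence, had FPKM values of 0.717 and 0.504 against 6.99 and 2.68. The median log2 change was 1.34 for the 12 members with the core and 0.86 for the 7 included members without it. Members whose place the filter fixed, such as Trim30a, were not left out of these medians. The difference between them was not tested. A match is a description of these letters and not a measured binding site.

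The interferon-inducible GTPases of the GBP and IRG families gave 8 of 10 included members above the controls in both libraries, with a median log2 change of 0.91 (1.49 in replicate 1 and 0.31 in replicate 2). Without 2 fixed by the filter it was 6 of 8. Gbp3, a guanylate-binding protein, had FPKM values of 1.37 and 1.15 against 5.26 and 4.21. Gbp2 had 1.27 and 1.04 against 10.7 and 2.69, with most of the difference in replicate 1.

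Antigen presentation genes of both classes were high. For MHC class I and peptide loading, 15 of 18 included members had both libraries above both controls and 6 were at least 2-fold above, with a median log2 change of 1.19 (1.86 and 0.74). Leaving out 1 member fixed by the filter, 14 of 17 lay above. Psmb8, a catalytic subunit of the immunoproteasome, had FPKM values of 1.21 and 1.2 against 13.9 and 6.26. H2-Q4, H2-Q6 and H2-Q7, nonclassical class I heavy chains that can share reads with each other, had 2.72 and 1.75 against 17.4 and 8.76, 1.3 and 0.386 against 18.0 and 8.80, and 0.346 and 0.377 against 6.32 and 3.07. B2m, the light chain of class I molecules, did not separate the groups, with 141 and 171 against 1035 and 163, and was picked out after its values were seen. For MHC class II, 8 of 10 included members lay above the controls in both libraries and 6 were at least 2-fold above, with a median of 2.27 (3.23 and 1.56). The filter fixed 3 of them, which leaves 5 of 7. Cd74, the invariant chain that escorts class II molecules, had 2.79 and 1.43 against 167 and 50.0, a log2 change of 4.93 ± 0.60. The class II beta chain H2-Ab1 had 0.413 and 0.368 against 35.4 and 9.74, H2-Eb1 had 1.19 and 1.13 against 38.1 and 10.3, and Ctss, the protease that trims the invariant chain, had 41.8 and 48.4 against 529 and 192.

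Reactive astrocyte genes lay above the controls more often than those of astrocyte identity. All 14 included members of the reactive list, out of 20, had both libraries above both controls, 6 of them at least 2-fold, and the median log2 change was 1.31, with 1.62 and 0.97 in the 2 libraries. The filter fixed 4 of the 14, and the other 10 also lay above, 4 at least 2-fold, with a median of 1.16 (1.47 and 0.97). Vim, the intermediate filament vimentin, had FPKM values of 8.17 and 6.33 against 81.8 and 42.6 (2.87 ± 0.35). Timp1, an inhibitor of matrix metalloproteinases, had 0.415 and 0.377 against 5.48 and 3.55. S100a6, a calcium-binding protein, had 15.7 and 13.3 against 42.4 and 37.4, and Hspb1, a small heat shock protein, had 11.4 and 8.97 against 24.6 and 32.1. The last 2 were close in both libraries labelled shCSB/shNDN, unlike the microglial genes. Gfap, the filament most used to mark reactive astrocytes and named after its values were seen, had 52.2 and 48.4 against 372 and 152. Of 20 astrocyte identity genes, 5 lay above and 4 below the controls in both libraries, with a median of 0.019. Aldoc, the aldolase of astrocytes, had 388 and 431 against 270 and 195, and Slc7a10, a serine transporter, had 15.8 and 15.0 against 10.9 and 10.2.

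Galectin and annexin genes had 7 of 12 members above the controls in both libraries, 1 of them fixed by the filter. Beside Lgals3, Anxa3 had FPKM values of 2.58 and 2.50 against 17.5 and 8.53, Anxa2 had 2.04 and 1.40 against 11.4 and 4.93, and Anxa5, which binds exposed phosphatidylserine, had 38.8 and 43.3 against 71.0 and 83.5. Genes of the other supporting cells differed less. Of 17 included meningeal and fibroblast genes, 14 lay above the controls in both libraries, with a median log2 change of 0.51 and none at least 2-fold above, or 13 of 16 without the 1 fixed by the filter. Col1a1 and Col1a2, the chains of type I collagen, had 0.870 and 0.684 against 1.62 and 3.05, and 0.563 and 0.453 against 1.47 and 2.01, both higher in replicate 2. Of 20 endothelial genes, 9 lay above, 1 of them fixed by the filter, and 2 below. The 1 fixed by the filter was the adhesion molecule Icam1, with 0.268 and 0.338 against 4.23 and 1.26. Vcam1, its partner in leukocyte adhesion, had 2.15 and 1.81 against 3.71 and 3.21. Of 18 myelin genes, 8 lay below and 1 above, with a median of -0.19 (-0.21 and -0.35). The gap junction gene Gjb1 had 18.3 and 16 against 10.5 and 7.77, and the myelin gene Opalin had 34.2 and 23.1 against 19.8 and 12.6. Of 14 oligodendrocyte precursor genes 3 lay above and 0 below, of 12 mural cell genes 1 above and 1 below, and of 5 included choroid plexus and ependyma genes 1 above and 0 below.

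**Figure D3:**
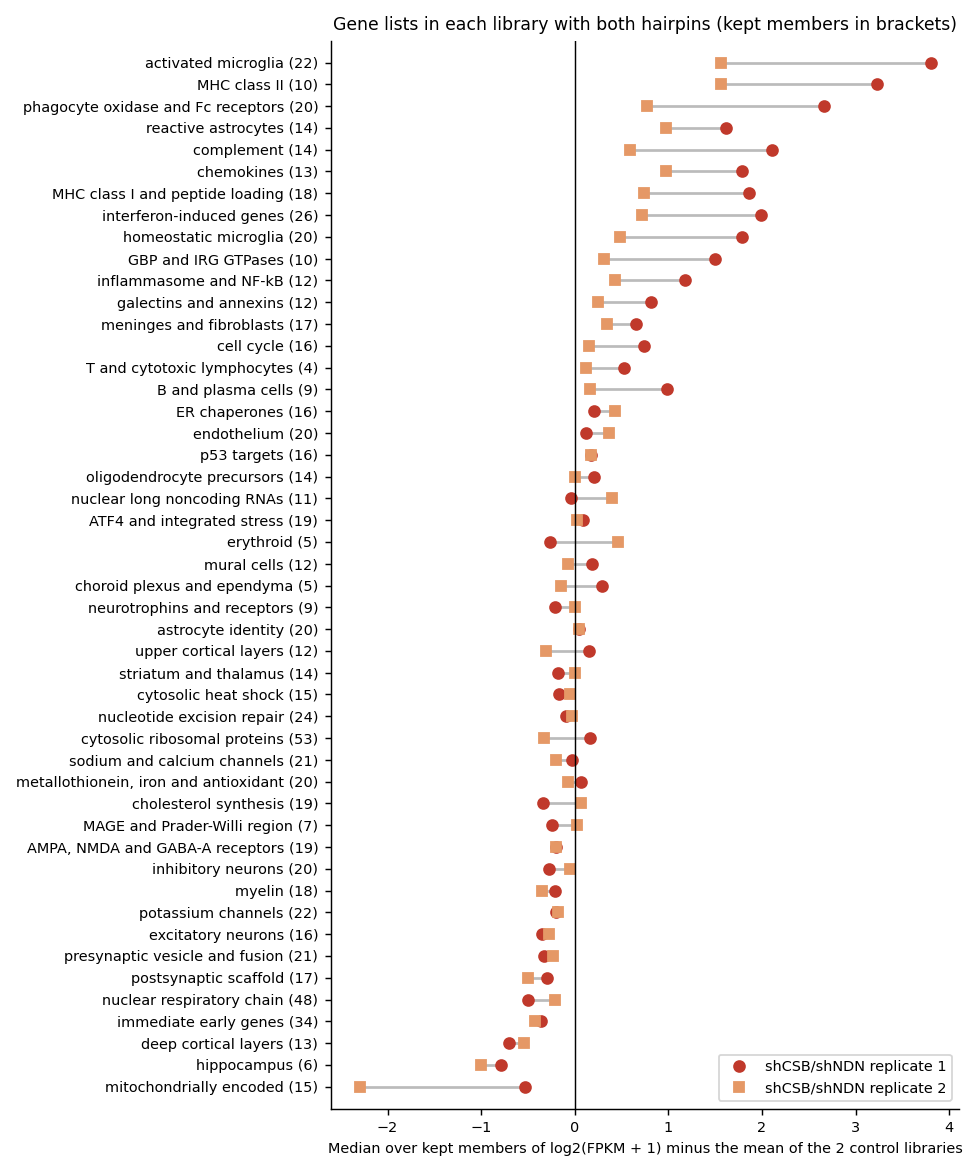
Median over the included members of each gene list (number in brackets) of log2(FPKM + 1) minus the mean of both control libraries (horizontal axis), for shCSB/shNDN replicate 1 (circles) and replicate 2 (squares). The complement, MHC, interferon and microglial lists lie to the right of 0 in both libraries and farther right in replicate 1, while mitochondrially encoded genes lie to the left, at -0.53 in replicate 1 and -2.30 in replicate 2.

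The 35 lower genes were of another kind. Only 12 of them were protein coding, against 13120 of all 15559 included genes. A gene list held 2 of the 35, a share near that of all included genes (821 of 15559). Cbln1, a secreted organiser of synapses, stood at an FPKM of 10.1 and 7.12 in the controls and 0.733 and 0.827 in the libraries labelled shCSB/shNDN, 9.08% of the control mean, with a log2 change of -2.41 ± 0.22 (limma adjusted p = 0.316). Spink8, a marker of hippocampal CA1 neurons, had 11.8 and 6.36 against 0.642 and 0. Cabp7, a calcium-binding protein of the secretory pathway, had 30.4 and 33.5 against 7.89 and 10.3, and Tekt5, of the tektin family of filament proteins, had 9.69 and 8.78 against 2.85 and 2.04. These 4 genes were also lower in shCSB replicate 2 than in shCSB replicate 1. Cbln1 was 6.95 and 1.67 there, Spink8 7.36 and 0.137, Cabp7 21.6 and 13, and Tekt5 7.70 and 2.89. Markers of the hippocampus, which lies beneath the visual cortex, had 4 of 6 included members below the controls in both libraries and a median log2 change of -0.98. The other 2 had a positive log2 change, and 0 had both libraries above both controls. C1ql2, of the dentate gyrus, had 11.1 and 3.52 against 0.967 and 3.10, and Fibcd1, of CA1, had 14.6 and 3.0 against 2.23 and 2.44. The summed FPKM of all 10 markers was 45.1 and 19.7 in shControl and 10.1 and 8.98 in the others, so the controls differed from each other by more than 2-fold. The part of dissection in the lower genes was not tested.

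Cortical neuron genes were lower more often than higher. Of 16 excitatory neuron genes, 7 lay below both controls in both libraries and 0 above, against 24.2% and 21.0% of all genes, with a median log2 change of -0.27. Neurod6, a transcription factor of pyramidal neurons, had FPKM values of 46.1 and 41.0 against 17.0 and 20.4 (-1.18 ± 0.19). Slc17a7, a vesicular glutamate transporter of pyramidal neurons, was abundant in all 4 libraries, with 406 and 420 against 313 and 206. Deep layer genes had 8 of 13 members below, with a median of -0.67. The controls also differed here, by a median of 0.52 between replicates 1 and 2, and the summed FPKM was 221 and 157 in shControl and 88.8 and 135 in the others. Without shControl replicate 1 the median was -0.41, and without shControl replicate 2 it was -0.84. Fezf2, which specifies subcortically projecting layer V neurons, had 30.5 and 18.4 against 9.83 and 7.94. Ntsr1, of layer VI corticothalamic neurons, had 3.76 and 2.33 against 1.45 and 1.21, and Pcp4, a calmodulin regulator of deep layers, had 34.8 and 46.0 against 25.2 and 13.3. Of 12 upper layer genes, 2 lay below and 1 above, with a median of 0.0013. Of 20 inhibitory neuron genes, 6 lay below and 0 above, with a median of -0.18 (-0.27 and -0.048). The transcription factor Dlx5 had 3.93 and 3.23 against 1.89 and 0.516, and Slc32a1, the vesicular GABA transporter, had 40.7 and 42.7 against 28.1 and 29.2. Sst, the somatostatin gene, named after its values were seen, spread across the controls, with 651 and 425 against 280 and 798.

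Activity-dependent genes lay mainly below the controls. Of 34 immediate early genes, 18 had both libraries below both controls and 4 above, 14 were lower and 1 higher at an unadjusted p under 0.05, and the median log2 change was -0.50, with -0.36 in replicate 1 and -0.42 in replicate 2. Arc, which controls AMPA receptor turnover at active synapses, had FPKM values of 276 and 321 against 160 and 76.1, a log2 change of -1.42 ± 0.40. The transcription factors Nr4a1 and Egr4 had 114 and 88.3 against 59.6 and 32.8, and 67.6 and 49.6 against 27.8 and 35.8. Maff, a small Maf transcription factor, went the other way, with 0.687 and 0.826 against 4.16 and 1.85. Neurons carry most of these transcripts. The excitatory, deep layer and inhibitory neuron lists above also had negative medians, while that of the upper layer list was 0.0013. The part of neuron content in the result was not tested.

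Synaptic genes showed the same tilt with small differences. Of 21 presynaptic genes, 13 lay below and 1 above, with a median of -0.30. Rab3a, a GTPase of synaptic vesicles, had FPKM values of 453 and 489 against 283 and 192, and Vamp2, the vesicle SNARE, had 482 and 464 against 298 and 287. Of 17 postsynaptic scaffold genes, 11 lay below and 0 above, with a median of -0.35. Dlg4, the scaffold PSD-95, had 119 and 113 against 72.3 and 73.6, which were nearly equal. Of 19 AMPA, NMDA and GABA-A receptor genes, 7 lay below and 0 above. Gabra5, a GABA-A subunit of extrasynaptic receptors, had 16.9 and 14.3 against 7.72 and 5.82. Of 22 potassium channel genes 7 lay below and 1 above, and of 21 sodium and calcium channel genes 6 lay below and 2 above. Among all genes 24.2% lay below and 21.0% above, so the lower counts of both channel lists were not far from the share of all genes. Their medians were -0.21 and -0.105. Scn3b, a sodium channel beta subunit, had 16.6 and 7.63 against 5.48 and 4.06.

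For mitochondrially encoded genes, replicate 2 carried most of the difference. All 15 had a negative log2 change, and 10 had both libraries below both controls. The median was -1.12, with -0.53 in replicate 1 and -2.30 in replicate 2. mt-Nd4, a complex I subunit, had FPKM values of 5396 and 5015 against 3327 and 106. mt-Atp6, a subunit of ATP synthase, had 428 and 746 against 325 and 10.5, and mt-Nd2, another complex I subunit, had 6104 and 6237 against 3778 and 451. mt-Nd3 was alike in both, with 130 and 138 against 65.8 and 62.5, and so was the small ribosomal RNA mt-Rnr1, with 5608 and 5514 against 3365 and 2551. The low mitochondrial share of replicate 2 is made of the reads of mitochondrially encoded genes and is not separate from these values. That library also had fewer entries with 1 read, and the part of this was not tested. The nuclear genes of the respiratory chain had 28 of 48 members below and 0 above, with a median of -0.35, here larger in replicate 1 (-0.50) than in replicate 2 (-0.21). Cox7b and Cox6c, subunits of cytochrome c oxidase, had 129 and 144 against 79.5 and 53, and 96.7 and 104 against 61.7 and 57.9.

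Stress and housekeeping groups were mixed. Of 16 ER chaperone genes, 10 lay above and 0 below, with a median of 0.31, and this was among the lists with the higher median in replicate 2 (0.43, against 0.20 in replicate 1). Edem1, of the pathway that removes misfolded glycoproteins, had FPKM values of 2.56 and 1.93 against 9.24 and 6.21. Dnajc3, a co-chaperone of the ER, had 6.04 and 5.80 against 11 and 12.2. Of 19 ATF4 and integrated stress genes 6 lay above and 2 below. Atf3, a stress-induced transcription factor that injured neurons and macrophages also express, had 0.371 and 0.653 against 10.8 and 4.86. Of 15 cytosolic heat shock genes 5 lay below and 1 above. Cryab, the chaperone alpha B-crystallin, had 141 and 124 against 95.9 and 78.1. In the list of metallothionein, iron and antioxidant genes, 6 lay above and 7 below. Mt2, a metal-binding metallothionein, had 11.7 and 11.4 against 4.48 and 4.27 (-1.22 ± 0.16), and Mt1 had 292 and 300 against 188 and 151. Ftl1, the ferritin light chain, had 178 and 159 against 452 and 455, although reads can be shared with its processed copies. Both values of Mt2 and both of Ftl1 were close to each other in the libraries labelled shCSB/shNDN. Of 53 cytosolic ribosomal protein genes 13 lay above and 8 below, shares near those of all genes, and their median of -0.080 turned to 0.057 under quantile normalization. Of 19 included cholesterol synthesis genes 7 lay below and 2 above, and Nsdhl, an enzyme of the late pathway, had 7.06 and 7.72 against 5.38 and 3.97. Of 11 included long noncoding RNAs 5 lay above and 3 below, with Neat1, the scaffold of nuclear paraspeckles, at 4.07 and 4.01 against 8.08 and 9.36.

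Lists for the pathways of the hairpin targets followed. Among all included genes 21.0% lay above and 24.2% below, the shares to set beside the counts here. Of 24 nucleotide excision repair genes other than Ercc6, 5 lay above and 7 below, not far from these shares. Their median was -0.072 (-0.092 in replicate 1 and -0.034 in replicate 2). Rad23b, a partner of the damage sensor XPC, had FPKM values of 24.6 and 27.7 against 20.7 and 17.9, and Ercc1, of the nuclease that cuts 5′ of a lesion, had 9.00 and 8.74 against 7.55 and 4.51. Of 7 included MAGE and Prader-Willi region genes other than Ndn, 2 lay below and 0 above. Snrpn, a splicing protein gene of the same imprinted region as Ndn, had 330 and 360 against 208 and 407, so the controls lay between its values. Of 16 included p53 target genes 6 lay above and 2 below, with a median of 0.22 (0.17 and 0.18). Ccng1, cyclin G1, had 18.3 and 19.5 against 26.8 and 28.5 (0.53 ± 0.17), and Cdkn1a, the inhibitor p21, had 7.76 and 9.18 against 16.4 and 11. Of 16 included cell cycle genes 7 lay above and 0 below, 3 were higher at an unadjusted p under 0.05, and the median was 0.47 (0.74 and 0.15). Without the 2 whose place the filter fixed, 5 of 14 lay above and the median was 0.37 (0.70 and 0.014). Mcm6, a subunit of the replicative helicase, had 1.09 and 0.890 against 2.39 and 1.99, and Ccnb2, cyclin B2, had 0.963 and 0.656 against 2.87 and 1.56. Which cells carried these transcripts was not measured.

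The 2 libraries labelled shCSB/shNDN were at least 2-fold apart, on FPKM + 1, for 1389 genes, against 203 for the controls. Replicate 1 was the higher for 1001 of these genes and replicate 2 for 388. Set against the control mean 1 at a time, replicate 1 had 683 genes at least 2-fold higher and 120 lower, and replicate 2 had 436 higher and 759 lower. Of the 153 genes at least 2-fold above the controls in both, 128 had the higher value in replicate 1. Some of the genes that differed most between these libraries follow, first those higher in replicate 1. Not all of them had the libraries on opposite sides of the controls. S100a11, a calcium-binding protein, stood at an FPKM of 5.17 and 4.59 in the controls and 15.9 and 0 in the libraries labelled shCSB/shNDN. Apoc1, an apolipoprotein of macrophages and liver, had 0.660 and 0.450 against 19.2 and 0.157. Gapdh, the glycolytic enzyme with many processed copies that can share its reads, had 3.21 and 4.59 against 64.9 and 3.35. In the other direction Pcsk1n, an inhibitor of a prohormone convertase, had 1025 and 974 against 718 and 3692. Ccdc85b, a transcriptional regulator, had 390 and 337 against 239 and 954. Notch4, a Notch receptor of endothelium, had 1.04 and 1.5 against 1.94 and 13.9, so both libraries lay above both controls. The hypothalamic and pituitary hormone genes Avp and Pomc were high in replicate 2 alone, with 0.319 and 0.580 against 0.305 and 23.1, and 2.42 and 1.42 against 1.6 and 12.7. These values describe single libraries, with no test.

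**Figure D4:**
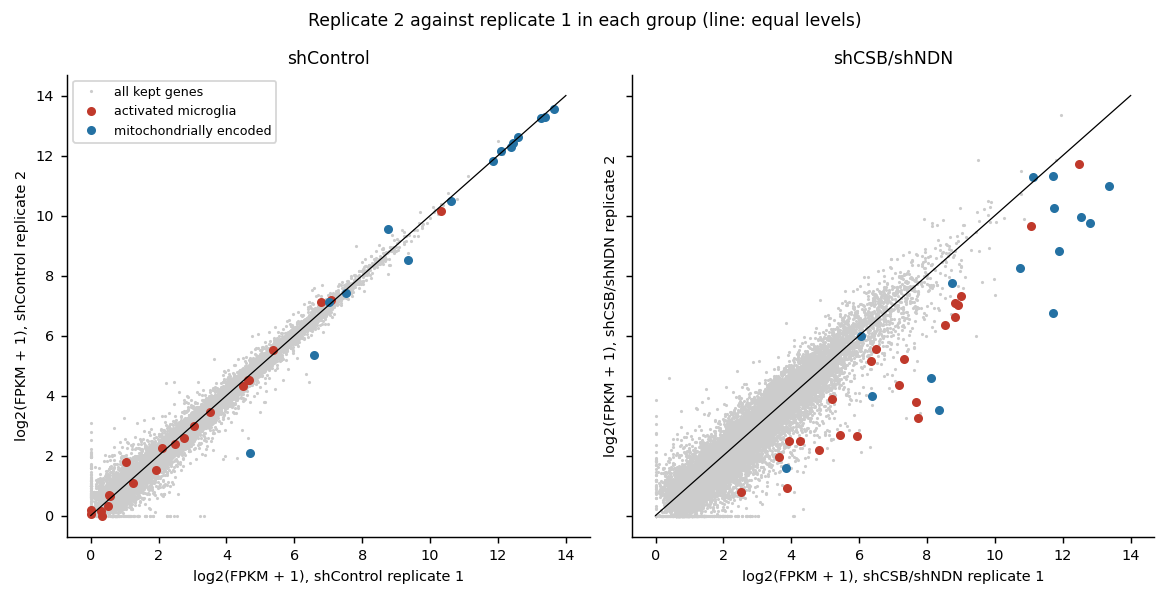
log2(FPKM + 1) of replicate 2 (vertical axis) against replicate 1 (horizontal axis) for the included genes, in shControl (left) and in shCSB/shNDN (right), with activated microglia genes in red and mitochondrially encoded genes in blue and a line at equal levels. In shControl 203 genes are at least 2-fold apart, and in shCSB/shNDN 1389, with the coloured genes below the line apart from 1 mitochondrially encoded gene.

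Some genes named above were also set against the libraries labelled shCSB, which carry the CSB hairpin alone. In a limma fit over the 6 libraries, 0 genes differed between shCSB/shNDN and shCSB at an adjusted p under 0.05, the smallest was 0.257, and 1343 had an unadjusted p under 0.05. Lyz2 was 12.4 and 14.5 in shCSB, above the 4.57 and 4.22 of shControl and far below the 477 and 129 of shCSB/shNDN. Cd74 was 8.27 and 5.78, Vim 13 and 13.4, and Cyba 11.3 and 15.6. The differences of shCSB/shNDN from shCSB were 4.11 ± 0.55 for Lyz2, 3.54 ± 0.55 for Cd74, 2.08 ± 0.31 for Vim and 2.47 ± 0.32 for Cyba (log2 scale, limma adjusted p = 0.257 each). For Cbln1 it was -1.37 ± 0.48, with a limma adjusted p of 0.556. Other genes had shCSB values close to those of shCSB/shNDN. Arc was 138 and 104 in shCSB and Nr4a1 60.3 and 51.4, both below shControl, while Igha was 2.95 and 8.76, above it. The differences of shCSB/shNDN from shCSB were -0.11 ± 0.37, -0.33 ± 0.31 and 0.099 ± 0.57 in that order (limma adjusted p = 0.941, 0.790 and 0.972), which does not show that the groups act alike.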

How the data were processed

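Total RNA of V1 was made into stranded total RNA libraries, per the labels' protocols. The authors deposited 1 table of FPKM values with a column per library. FastQC, HISAT2 2.0.4 and the build GRCm39 are named, per the submitters' processing notes; the counter, its strand option and annotation are not given in the sources used here. Of 54495 identifiers shared with GENCODE M21, 98.3% have the same start and end there, so the coordinates were read as GRCm38. With no strand option known, genes that overlap, lie antisense or have near-identical copies are uncertain.

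From the deposited FPKM values, 27 symbols lost to dates were recovered through their identifiers, and entries of 100 repeated symbols were added up. FPKM times gene length gave whole reads for 100% of values within 0.01. A chi-square test of reads over its degrees of freedom gave 12.2 for the control pair and 129 for the shCSB/shNDN pair, so neither pair lay within sampling noise. On log2(FPKM + 1) of the 4 libraries, group means were fitted by limma 3.58.1 (R 4.3.3) with its trend option, 2 residual and 3.00 prior degrees of freedom, and two-sided p values with Benjamini-Hochberg adjustment over 15559 genes, threshold 0.05. The steps were tested on simulated data. Replicates were taken as separate mice; where they are not, p values measure only the spread between these samples. An exact permutation test of 2 against 2 cannot go below 0.333 and was not used. Lists are described by counts and medians, with no test.

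The comparison, 50 lists and naming rule were chosen with earlier results of these data known. Named were Ercc6 and Ndn, up to 12 genes per direction with the smallest p and 10 with the largest gap among groups that did not overlap (the higher group averaging an FPKM of 1 or more), 4 per list by p, and 8 per direction that differed most between the shCSB/shNDN libraries (FPKM of at least 5). Predicted genes, pseudogenes, Rik clones and genes under 200 bases were not named, and 2 genes that the rule picks are not reported here. Other named genes were picked after their values were seen. Alternatives were a pseudocount of 0.1, other filters, a replicate block, all 6 libraries, quantile, TMM and mitochondria-free scaling, no trend, a robust spread, limma-voom on recovered reads, and leaving out each library.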

Additional observations from a re-analysis of the deposited data

How the results depend on the processing

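The number of genes called was 0 under the other pseudocount, filters, scalings and spreads, limma-voom, and without either control. It was 13 with the replicate block (10 higher, 3 lower), 1 with all 6 libraries in the fit, and 0 to 1732 over the fits without 1 library. It was 1732 without shCSB/shNDN replicate 1 and 507 without replicate 2. Those fits take the lone library to vary like the controls. The correlation of replicate differences between the groups was -0.0165 across genes. With 2 libraries a group, this cannot tell whether equal replicate numbers mark samples handled together. At an unadjusted p under 0.05, the fits without 1 library gave 373 to 5442 genes. Those without a control gave 373 and 376, and those without a shCSB/shNDN library gave 5442 and 3434. The Ndn change ran from -1.60 (limma adjusted p = 0.0191, without shCSB/shNDN replicate 2) to -0.36 and that of Ercc6 from 0.14 to 0.28.

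The median of interferon-induced genes was 2.08 with a pseudocount of 0.1 and 2.17 with limma-voom. That of the hippocampus list was -1.21 and -1.24 under these, -1.32 at a mean FPKM of at least 1, and -1.48 to -0.41 without 1 library, the smallest without shControl replicate 1. That of immediate early genes was -0.59 and -0.59 under the first pair, -0.45 with mitochondria-free scaling and -0.57 to -0.23 without 1 library. The medians of activated microglia (1.57 to 3.80), MHC class I (0.74 to 1.86) and mitochondrially encoded genes (-2.30 to -0.53) kept their direction without any 1 library. The causes of these shifts were not tested.

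Some genes changed sign, with these ranges over the fits without 1 library: Cd68 -0.23 to 4.24, Apoc1 -0.42 to 3.70, Gapdh -0.16 to 3.76 and Snrpn -0.72 to 0.24, each of these 4 reversed without shCSB/shNDN replicate 1. Reversed without replicate 2 were S100a11 (-2.55 to 1.53), Avp (-0.15 to 4.06), Pomc (-0.15 to 2.25), Pcsk1n (-0.48 to 1.89) and Ccdc85b (-0.60 to 1.39). With 2 libraries a group and 1 of them far from the other, the spread within shCSB/shNDN limits what can be called.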
